A study of Rattus norvegicus with 28 samples.

Results

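The 7 genes described here encode receptors that bind the constant (Fc) part of antibodies, or relatives of such receptors, in rat spinal cord after contusion. They are Fcrls, Fcer1g, Fcgr1a, Fcgr2a, Fcgr2b, Fcgr3a and Fcgrt, chosen by gene name on the array out of 35469 named features. The choice was made with the rise over uninjured tissue known, Fcrls having the largest, so values against uninjured tissue are given below as a description without a test. The 7 genes are measured by 8 probes, 2 of them for Fcgr1a, whose mean stands for the gene.

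The study followed spinal cord injury (SCI) with 1-colour arrays in 7 groups of 4 adult female Sprague Dawley rats. T0 received no contusion (sham in the labels, uninjured in the study's methods), and T1, T2, T4 and T8 received a 250 kdyn contusion at the eighth thoracic vertebra and were killed 1, 2, 4 and 8 weeks later. T1_NPC received the same injury and 1000000 neural progenitor cells (NPCs) right after it, and was killed at 1 week. T2_NPC received NPCs 1 week after the injury and was killed at 2 weeks. The NPCs came from the cords of other adult injured rats, and the study's methods and labels list the immunosuppressant FK-506 (tacrolimus, 1 mg/kg) in the care after surgery, for all animals in the methods. Its start is given relative to transplantation, so when animals without NPCs had it is not stated. The sample records carry the dose for T1_NPC and T2_NPC only. If the other groups had none, the drug and the NPCs cannot be told apart. Per the methods, injured control animals had an injection of medium without cells. Each sample was 1.5 cm of cord with the injury epicentre, so all cell types of the tissue contribute, and fewer cells of a type and less RNA per cell cannot be told apart.

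Activating Fc receptors on microglia and macrophages bind antibody-coated material and drive phagocytosis and release of inflammatory mediators. Fcgr1a is the high-affinity IgG receptor, and Fcgr2a and Fcgr3a name low-affinity activating receptors on this array. Fcer1g is the common gamma chain, the signalling subunit that carries an immunoreceptor tyrosine-based activation motif (ITAM) and that these receptors need. Fcgr2b is the inhibitory receptor, which opposes them. Fcgrt is the neonatal Fc receptor, which pairs with beta-2-microglobulin and protects IgG and albumin from degradation. Fcrls is an Fc receptor-like scavenger receptor, known in mouse as a microglial gene, and is named Fcrl2 in the current RefSeq rat annotation. Symbols of the low-affinity receptors have shifted between annotations: the sequence called Fcgr2a on the array also carries the RefSeq synonyms Fcgr3 and fcRIII, and the one called Fcgr3a the synonyms Fcgr4 and CD16-2.

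The probes are shown because the low-affinity receptors are similar in sequence, and the probe is what fixes which gene a value belongs to. Positions are in the rat build rn4 of the array annotation, and each probe is printed 5′ to 3′.
Fcrls (chr2:179284060-179284119, minus strand): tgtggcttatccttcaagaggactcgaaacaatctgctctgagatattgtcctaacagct
Fcer1g (chr13:87119567-87119626, minus strand): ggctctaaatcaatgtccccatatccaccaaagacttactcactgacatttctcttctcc
Fcgr1a, probe A_43_P15904 (chr2:191095045-191095104, minus strand): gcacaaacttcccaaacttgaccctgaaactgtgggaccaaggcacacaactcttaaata
Fcgr1a, probe A_44_P189496 (chr2:191099039-191099098, minus strand): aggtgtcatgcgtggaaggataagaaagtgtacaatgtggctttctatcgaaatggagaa
Fcgr2a (chr13:86905963-86906022, minus strand): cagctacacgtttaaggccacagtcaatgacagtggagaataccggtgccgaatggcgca
Fcgr2b (chr13:86809091-86809150, minus strand): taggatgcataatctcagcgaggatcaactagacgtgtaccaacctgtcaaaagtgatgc
Fcgr3a (chr13:86877181-86877240, plus strand): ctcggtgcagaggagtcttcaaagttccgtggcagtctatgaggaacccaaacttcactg
Fcgrt (chr1:95568453-95568512, minus strand): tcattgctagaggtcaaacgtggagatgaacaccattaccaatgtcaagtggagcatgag
The longest run of bases shared by any pair of these probes was 9, between probe A_43_P15904 of Fcgr1a and the probe of Fcgr3a. The probes were compared with each other only. Whether a probe also binds the transcript of another gene was not checked. The probes of Fcgr2b, Fcgr3a, Fcgr2a and Fcer1g lie within 311 kb of each other on chromosome 13. Those of Fcrls and Fcgr1a are both on chromosome 2, and that of Fcgrt is on chromosome 1.

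All 8 probes passed the scanner's test of being well above background on each of the 28 arrays, as did 74.5% to 82.7% of the spots of an array. The deposited value table and the scanner outputs name different samples for 16 of the 28 arrays. Every column of the value table had the rank order of exactly 1 output, and the sample names of the value table are used here; the 12 arrays on which both sources agree are called undisputed below. They include 1 T1 array, 2 T8 arrays and no T1_NPC array. Under the outputs' own sample names no member passed the test in any comparison with T0. Of all features, 831 passed there in T2_NPC against T0, and at most 1 in every other group against T0. The arrays lay on 7 slides scanned in 3 sessions, and the 4 arrays of a transplanted group shared 1 slide, with no other group, in session 3, so slide and transplantation cannot be told apart. Per the study's methods the 4 arrays of a group come from 4 animals, and p-values measure the spread between them.

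Every member was higher after injury. For each of the 7 genes, all 24 arrays of injured cord lay above all 4 T0 arrays, which 8.17% of all features did; because this contrast was used to choose the genes, nothing is read from the count. The 6 comparisons with T0 share the same 4 T0 arrays. The mean log2 level of the 10 macrophage markers was 6.77 to 7.54 on the T0 arrays and 11.50 to 11.84 on the T1 arrays, and that of the 9 microglial markers 9.49 to 9.57 and 10.54 to 11.08. All 10 macrophage, 6 of 9 microglial, 8 of 9 T cell and 4 of 7 B cell markers were higher in T1 than in T0 (limma, adjusted p under 0.05). Well above background on all 4 T0 arrays were 7 of the macrophage, 8 of the microglial, 3 of the T cell and 3 of the B cell markers. The T0 means of these lists therefore include values near background. All 7 neuronal markers (median -1.67) and 5 of 8 oligodendrocyte markers (median -0.59) were lower, from a T0 level above background on every array. The part of these cell types in the rise was not tested. Values are on the log2 scale of the value table, in the order of replicates 1 to 4, and differences are between group means.

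Fcrls stood at 6.91, 7.25, 6.73 and 5.50 in T0. It stood at 15.25, 15.79, 13.88 and 16.30 in T1, and at 13.50, 15.63, 15.16 and 13.64 in T2. In T4 it was 15.30, 12.86, 14.74 and 12.64, and in T8 13.42, 12.94, 14.84 and 15.52. The lowest injured array of all was 4.91 log2 units above the highest T0 array, while the injured arrays themselves ranged over 4.13 units. The log2 difference from T0 lay between 7.28 in T4 and 8.83 in T2_NPC, that is 156-fold to 455-fold. With the undisputed arrays alone it was 8.43 in T1 and 7.41 in T8.

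The gamma chain Fcer1g stood at 11.98, 11.97, 12.11 and 11.82 in T0, and at 15.16, 15.25, 14.76 and 15.29 in T1. By T8 it was 14.42, 14.48, 14.54 and 14.47. The T1 and T8 arrays did not overlap, and both were far above T0. Its log2 difference from T0 lay between 2.51 and 3.14, or 5.69-fold to 8.84-fold.

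Among the activating receptors, Fcgr1a stood at 8.85, 8.50, 8.68 and 8.41 in T0 and at 11.88, 11.88, 11.58 and 11.97 in T1. It was 11.26, 11.14, 11.34 and 11.06 in T2, 10.96, 10.77, 10.68 and 10.75 in T4, and 10.73, 10.45, 10.76 and 10.68 in T8. Each T2 array lay below each T1 array, and each T4 array below each T2 array. Neither step passed the test (limma, adjusted p = 0.16 and 0.60), and how many of all features were so separated was not counted. The log2 difference from T0 was 3.22 in T1 and 2.05 in T8, and its 2 probes gave 3.12 and 3.31 in T1 and 2.04 and 2.05 in T8.

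Fcgr2a was the steadiest gene in T0, at 10.00, 10.02, 10.02 and 10.02. It stood at 13.61, 13.80, 13.31 and 13.81 in T1, and at 13.37, 12.93, 13.13 and 12.99 in T8. Among the 6 genes besides Fcrls it had the largest difference from T0 in every injured group, between 3.09 and 3.79. Fcgr3a stood at 10.22, 10.34, 10.33 and 9.68 in T0, at 13.15, 13.34, 12.73 and 13.42 in T1, and at 12.12, 11.99, 12.62 and 12.26 in T8. Its difference from T0 was 3.02 in T1 and 2.11 in T8, and its T8 arrays all lay below its T1 arrays.

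The inhibitory receptor Fcgr2b stood at 12.13, 12.44, 12.08 and 12.09 in T0. In T1 it was 14.99, 14.94, 14.89 and 14.94, and in T8 15.01, 14.76, 15.02 and 14.96. The T1 and T8 arrays overlapped. Its difference from T0 stayed between 2.59 and 2.79 in all 6 injured groups, the narrowest span of the 7 genes.

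The neonatal receptor Fcgrt had the smallest rise in T1. It stood at 10.89, 11.43, 11.01 and 11.70 in T0, at 13.01, 13.71, 13.31 and 13.89 in T1, and at 13.49, 13.01, 13.47 and 13.24 in T8. Its difference from T0 lay between 1.80 in T4 and 2.60 in T1_NPC, or 3.48-fold to 6.06-fold.

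**Figure D1:**
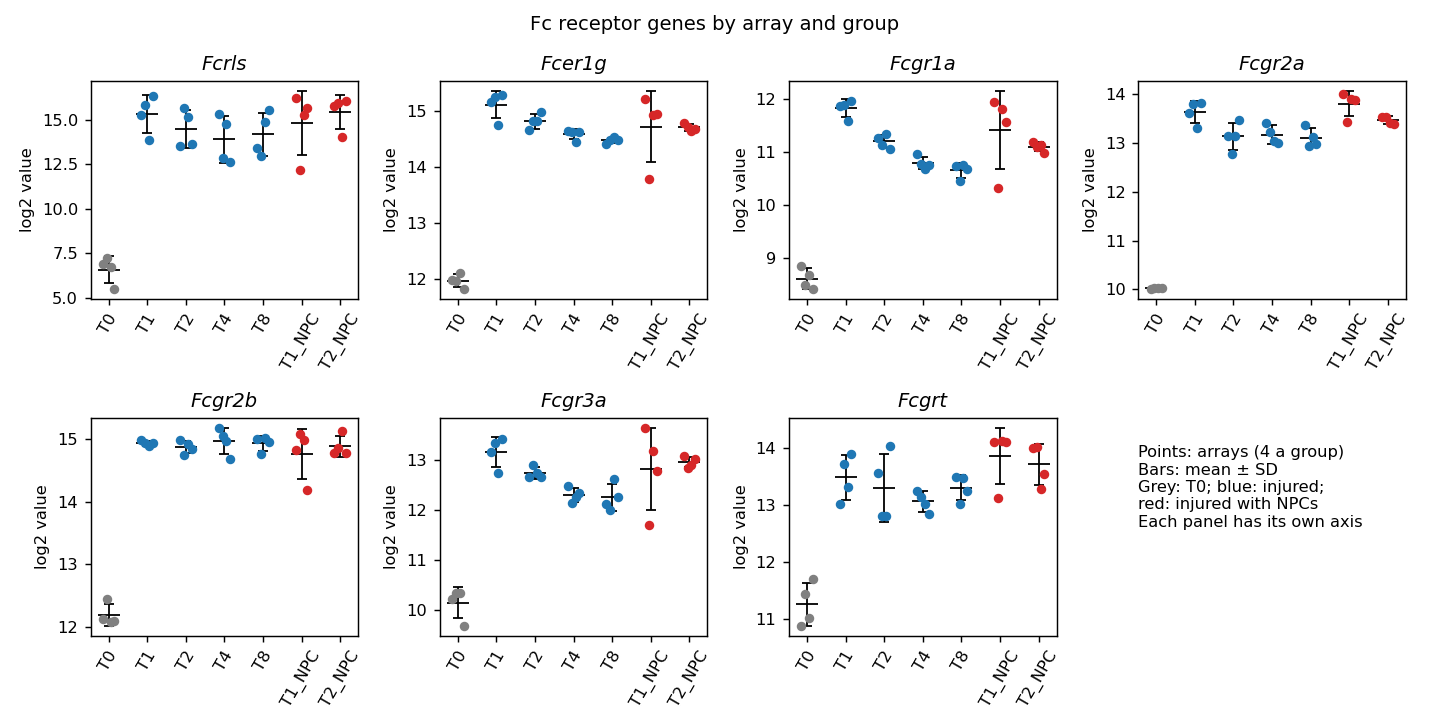
Log2 value of each gene on every array, by group, with the mean and SD of the 4 arrays; each panel has its own vertical axis. All injured arrays sit above the T0 arrays, and T1_NPC replicate 2 is the lowest array of its group for 6 of the 7 genes.

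**Figure D2:**
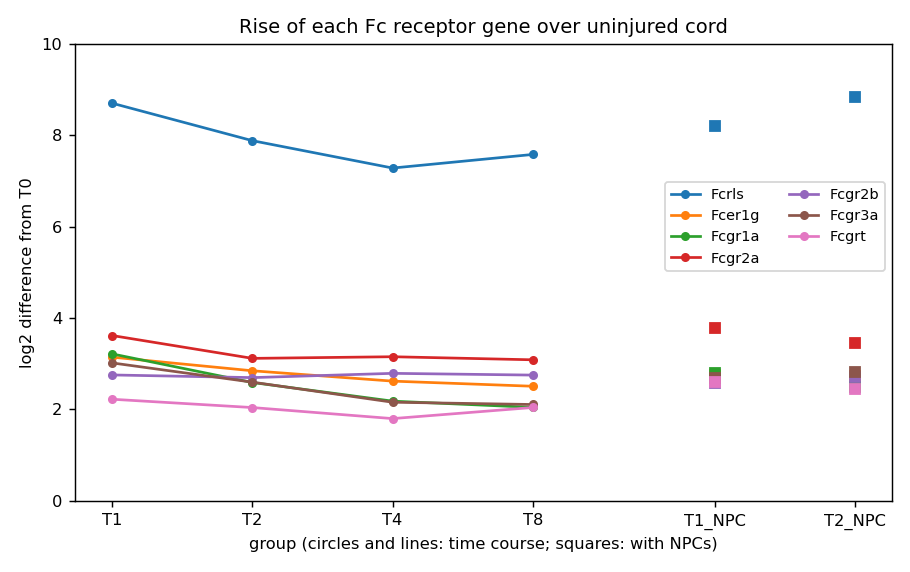
Log2 difference of the group means from T0 for each gene, along the time course and in both transplanted groups. Fcrls lies between 7.28 and 8.83, and the other genes between 1.80 and 3.79.

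Genes were compared between injured groups to follow the receptors over time, in contrasts that were not used to choose them. From 1 to 8 weeks, 4 of the 7 genes fell and none rose, against 4.42% of all features that fell, 5.45% that rose and 9.87% in either direction (limma, adjusted p under 0.05). Fcgr1a fell by 1.17 (SE 0.22, adjusted p = 6.7e-04), Fcgr3a by 0.91 (SE 0.26, adjusted p = 0.024), Fcer1g by 0.64 (SE 0.19, adjusted p = 0.032) and Fcgr2a by 0.53 (SE 0.15, adjusted p = 0.020) on the log2 scale, with 4 arrays a group. These are the IgG receptors of the activating kind and their signalling chain. The median of the 7 differences was -0.64, beside 0.00 over all features.

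The other 3 genes did not pass the test. Fcgr2b differed by 0.00 (95% interval -0.31 to 0.30) and Fcgrt by -0.18 (-0.75 to 0.38). Fcrls differed by -1.12, close to Fcgr1a in size, with an interval from -2.80 to 0.56 (limma, adjusted p = 0.49). An array-to-array SD of 1.21 lay behind this, larger than that of 98.8% of all features, against 0.20 to 0.40 for the other 6 genes.

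Of the 4 falls, that of Fcgr1a kept its call most often when single arrays were left out. It passed with each T1 and T8 array left out in turn, and both its probes passed (-1.08 and -1.26). The second probe, A_44_P189496, is named Fcgr1a on the array but was not matched to a current RefSeq symbol. Its mean in T0 was 5.72, beside 11.50 for probe A_43_P15904. The fall of Fcgr1a did not pass under the outputs' own sample names (0.18), where 0 of all features passed in T8 against T1. Whether the other 3 passed depended on the arrays in the fit. Without T1 replicate 2, T1 replicate 4, T8 replicate 2 or T8 replicate 4, Fcgr1a was the only gene of the 4 called. Without T8 replicate 1 Fcgr1a and Fcgr2a were, and without T1 replicate 1 or T8 replicate 3 Fcer1g was lost. Over the alternative fits with the value table's sample names these 3 differences stayed below 0. They ranged from -0.76 to -0.58 for Fcer1g, -1.05 to -0.82 for Fcgr3a and -0.65 to -0.45 for Fcgr2a. Within scan session 2, with 3 T1 and 2 T8 arrays, the difference was -1.06 for Fcgr1a, -0.79 for Fcgr3a, -0.62 for Fcer1g and -0.39 for Fcgr2a, whose groups overlapped there. Session 1 held 1 T1 and 2 T8 arrays, which are also the undisputed ones, and gave -1.31, -1.02, -0.68 and -0.65 in the same order, values that rest on a single T1 array. Marker lists moved in the same comparison: the mean log2 level of 10 macrophage markers ranged from 11.50 to 11.84 in T1 and from 10.59 to 10.92 in T8, with 5 of 10 genes falling, and that of 9 microglial markers from 10.54 to 11.08 and from 9.91 to 10.23, with 0 of 9 passing. Their part in the fall of the receptors was not tested.

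**Figure D3:**
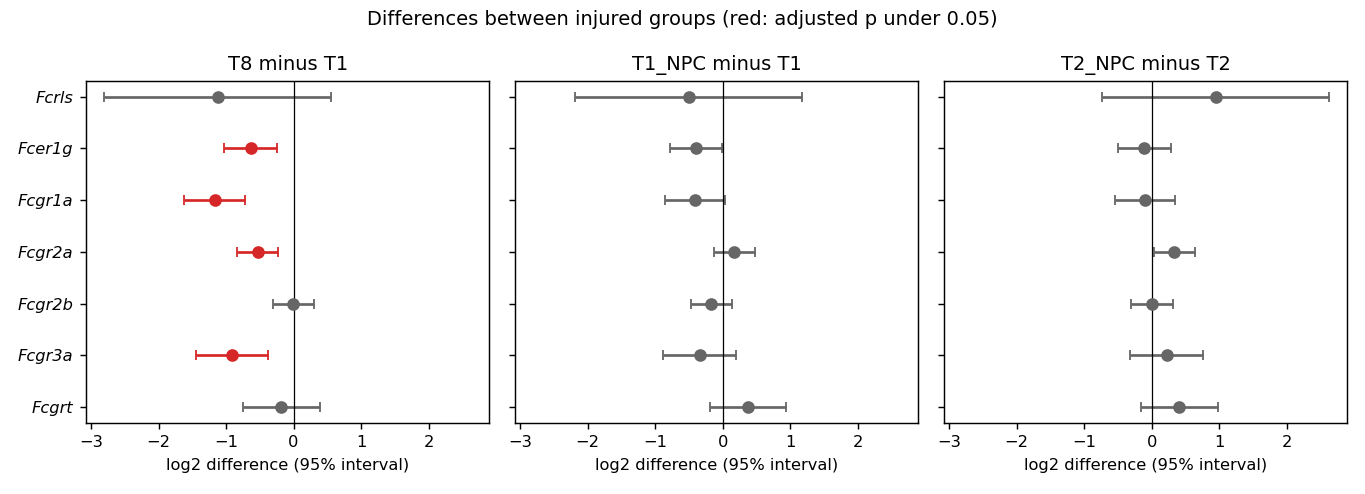
Log2 difference with its 95% interval for each gene, for T8 against T1, T1_NPC against T1 and T2_NPC against T2; red marks an adjusted p under 0.05. Fcgr1a, Fcgr3a, Fcer1g and Fcgr2a lie below 0 in T8 against T1, and Fcrls has the widest interval in each panel.

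Because 3 activating receptors fell and the inhibitory one did not pass, each gene was set against Fcgr2b on the same array, as a description without a test, since the comparison and its reference gene were chosen after these values were seen. A shift of scale that a whole array shares cancels in it. From T1 to T8 the difference to Fcgr2b changed by -1.17 for Fcgr1a, -0.91 for Fcgr3a, -0.63 for Fcer1g and -0.53 for Fcgr2a, and in each the 4 T8 arrays lay below the 4 T1 arrays. In the values themselves the T1 and T8 arrays did not overlap for Fcer1g, Fcgr1a and Fcgr3a, 3 of the 7 genes, beside 16.4% of all features. The change was -1.12 for Fcrls and -0.18 for Fcgrt, with overlapping arrays. Fcgr2b itself differed by 0.00, so these changes nearly equal the differences given above and add no evidence to them.

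**Figure D4:**
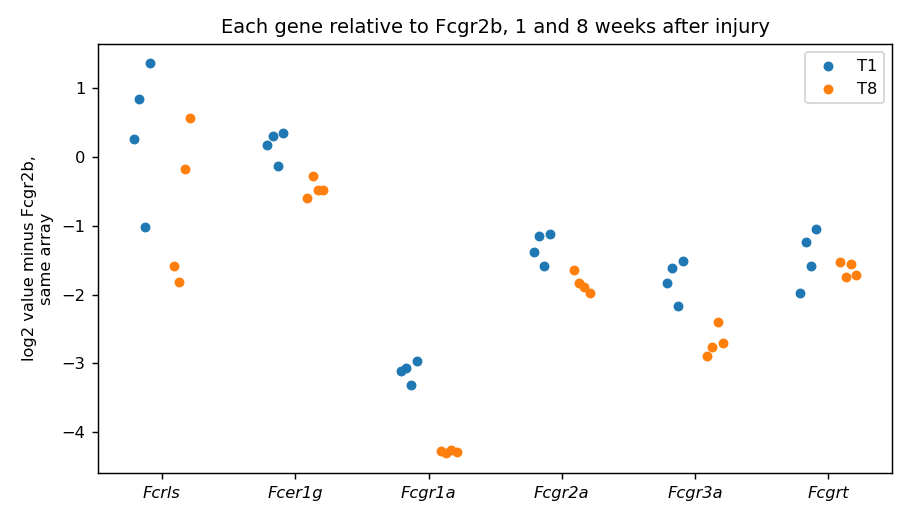
Log2 value of each gene minus that of Fcgr2b on the same array, T1 and T8, 4 arrays each. Only the change within a gene can be read, since levels of different probes are not comparable; T8 lies wholly below T1 for Fcer1g, Fcgr1a, Fcgr2a and Fcgr3a.

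Between successive time points no member passed the limma test. From T1 to T2, where 1.48% of all features passed, the 2 genes with an unadjusted p under 0.05 were Fcgr1a (-0.63, adjusted p = 0.16) and Fcgr2a (-0.50, adjusted p = 0.089). From T2 to T4 and from T4 to T8 no member had an unadjusted p under 0.05, and 0.0761% and 0.0902% of all features passed. Fcgr1a was called from T1 to T2 when the time-course arrays were fitted alone (adjusted p = 0.0079).

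NPC transplantation was compared with injury alone at the matched time. At 1 week, T1_NPC stood at 16.18, 12.17, 15.24 and 15.62 for Fcrls, at 15.21, 13.80, 14.93 and 14.94 for Fcer1g, and at 11.94, 10.33, 11.81 and 11.57 for Fcgr1a. Replicate 2 was the low array in each. It was also lowest for Fcgr2a (13.43 against 13.89 to 14.01), Fcgr3a (11.70 against 12.78 to 13.63) and Fcgrt (13.12 against 14.09 to 14.11), while for Fcgr2b it was the highest at 15.08. On that array the mean log2 level was the lowest of the group for the microglial (8.78 against 10.29 to 10.87), T cell (4.67 against 6.54 to 7.11) and B cell markers (4.45 against 5.90 to 6.30), and by little for the macrophage markers (11.67 against 11.72 to 12.22). It was the highest of the group for the neuronal (12.30), blood (9.53) and neutrophil markers (5.79). Their part was not tested.

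No member passed in T1_NPC against T1, where 11.9% of all features did (limma), nor when replicate 2 or any other array was left out. This comparison shares the T1 arrays with T2 and T8 against T1. Fcer1g came nearest, at -0.39 (95% interval -0.78 to -0.0028, adjusted p = 0.18). The intervals were -0.86 to 0.03 for Fcgr1a, -0.13 to 0.48 for Fcgr2a, -0.47 to 0.14 for Fcgr2b, -0.88 to 0.20 for Fcgr3a, -0.19 to 0.94 for Fcgrt and -2.18 to 1.18 for Fcrls. These values include replicate 2. Without T1_NPC replicate 2 the difference was -0.085 for Fcer1g, -0.051 for Fcgr1a, 0.034 for Fcgr3a and 0.38 for Fcrls. Fcgr2a (0.30), Fcgrt (0.62) and Fcgr2b then lay further from 0 than with all arrays.

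At 2 weeks, T2_NPC stood at 15.77, 15.91, 14.01 and 16.04 for Fcrls, and at 13.54, 13.54, 13.40 and 13.40 for Fcgr2a. None of the 7 passed against T2, beside 9.47% of all features (limma). Fcgr2a had the lowest p, at 0.33 (95% interval 0.03 to 0.64, adjusted p = 0.16). Fcgrt differed by 0.41 (-0.15 to 0.98), Fcgr3a by 0.22 (-0.31 to 0.76) and Fcrls by 0.95 (-0.73 to 2.63), while Fcer1g (-0.50 to 0.28), Fcgr1a (-0.55 to 0.34) and Fcgr2b (-0.30 to 0.31) had intervals around 0. With the undisputed arrays, 2 of T2 and 4 of T2_NPC, Fcgr2a (0.51, adjusted p = 0.021) and Fcgrt (0.90, adjusted p = 0.024) passed, whereas Fcrls was 0.04. In that fit 7399 of all features passed, beside 3359 in the main fit. Its T2 arrays were all of scan session 1. Fcgrt stood at 12.81 on both, and at 13.55 and 14.02 on the T2 arrays left out, which were of session 2. The effects at 1 and 2 weeks did not differ detectably for any member, beside 0.299% of all features; the difference was 0.56 for Fcgr3a (-0.20 to 1.32) and 1.45 for Fcrls (-0.93 to 3.83).

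The genes nearest to Fcrls depended on the measure. Over the 28 arrays, among 15640 named symbols, its log2 values correlated best with Fcgr3a (Pearson r = 0.960), then Slc15a3, Apobec1, Card9 and Man2b2 (to 0.955); these points share the step between T0 and injured cord. For deviations from the group means, Card9 (0.788), Fcgr3a (0.764), RGD1310159, Ccl4 and Dhdds (to 0.747) came first, and without T1_NPC replicate 2 Fcgr3a stood at 0.637. For the other genes the nearest by log2 values were Tgfb1 for Fcer1g (0.994), Plbd1 for Fcgr2a (0.994), Ptpn7 for Fcgr1a (0.988), Btk for Fcgr3a (0.981), Loxl3 for Fcgrt (0.974) and the macrophage marker Cd68 for Fcgr2b (0.968). Within the family, deviations of Fcer1g went with those of Fcgr1a (0.889) and Fcgr3a (0.884), and those of Fcgr2b with none (-0.32 to 0.07); without T1_NPC replicate 2 these became 0.522, 0.708 and 0.04 to 0.44.

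Promoter windows of 250 bases before to 50 after the start were found in RefSeq (build GRCr8) for 3 of the 7 genes, Fcgr2a (2 windows), Fcgr3a and Fcgrt. They were searched on both strands for GAGGAA, the purine-rich core bound by PU.1, the myeloid transcription factor. The letters occurred in 3 of the 4 windows and in 27.6% of all 33469 windows, which is a description and not a site. Those of Fcgr3a, which fell from T1 to T8, and Fcgrt, which did not pass, are shown with the match in capitals.
Fcgr3a (chr13:85782386-85782685, plus strand): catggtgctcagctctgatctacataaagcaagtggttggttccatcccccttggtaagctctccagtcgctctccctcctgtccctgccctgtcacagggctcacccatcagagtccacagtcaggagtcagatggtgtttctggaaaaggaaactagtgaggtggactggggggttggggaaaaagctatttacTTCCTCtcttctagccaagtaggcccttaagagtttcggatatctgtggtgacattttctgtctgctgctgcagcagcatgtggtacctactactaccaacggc
Fcgrt (chr1:104719977-104720276, minus strand): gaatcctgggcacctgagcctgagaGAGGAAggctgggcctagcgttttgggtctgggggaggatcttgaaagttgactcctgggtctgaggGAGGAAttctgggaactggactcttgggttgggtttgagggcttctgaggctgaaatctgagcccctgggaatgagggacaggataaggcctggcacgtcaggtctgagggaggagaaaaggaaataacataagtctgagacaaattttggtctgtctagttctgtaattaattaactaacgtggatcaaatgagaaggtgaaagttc

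The signalling genes around the receptors were described from lists chosen with earlier results known. At T1, where 19.1% of all features were higher than T0 and 25.1% lower, 19 of 24 kinases, adaptors and lipases downstream of activating receptors rose and 1 fell (median 2.55 on the log2 scale, beside -0.10 over all features). Vav1, an exchange factor for Rac, rose by 4.14, the kinase Syk, which docks on the ITAM, by 4.01, and the Src-family kinase Lyn by 2.53. Rises and falls against T0 here are calls by limma (adjusted p under 0.05) and are given as a description. The brain-rich kinase Prkcb fell by 1.15. The other ITAM adaptor, Tyrobp, rose by 2.55, and its partner Trem2 by 3.26; Trem1 was below background on all T0 arrays and was at least 25.7-fold higher in T1.

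On the inhibitory side 15 of 17 genes rose and 1 fell (median 2.90). The phosphatases Ptpn6 (SHP-1) and Inpp5d (SHIP1), effectors of inhibitory receptors, rose by 2.93 and 2.41, and the inhibitory receptor Lilrb4 was at least 51.9-fold higher, being below background in T0. Of 20 genes of actin remodelling and the phagocyte oxidase, 17 rose and 2 fell, among them the oxidase subunit Ncf1 (4.23) and the cytoskeletal kinase Pak1 (-0.66). B2m, the partner chain of Fcgrt, rose by 1.00, with Cubn (1.00) and Vps26a (0.89), while Lrp2 fell by 1.70, Alb by 1.33 and Rab4a by 1.00.

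From T1 to T8, 9 of the 24 downstream genes, 4 of 17 inhibitory genes and 9 of 20 phagocytosis genes fell and none rose, beside 4.42% of features lower. Syk fell by 1.06, Lyn by 0.81 and Ptpn6 by 0.84, and the Rac of blood cells, Rac2, by 1.46 (limma, adjusted p = 1.3e-06). Trem1 was above background on all 4 T1 arrays and on 2 of the 4 T8 arrays, so no size is given for its difference. Without T1 replicate 2, T1 replicate 4 or T8 replicate 2, 4, 3 and 5 of the 24 downstream genes fell, and without T1 replicate 2 or 4 the phagocytosis count was 5. Tyrobp, by contrast, differed by -0.19 (adjusted p = 0.52), and Inpp5d by -0.76 (adjusted p = 0.050, just above the threshold). Cubn rose by 2.17 and B2m differed by 0.27 (limma, adjusted p = 0.095).

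After transplantation these lists gave small counts. At 1 week 2 of 24 downstream genes were higher than in T1, Grb2 (0.46) and Vav3 (0.43), beside 5.45% of all features. Of the 20 phagocytosis genes Coro1a was lower, by -0.49, beside 6.46% of all features; without T1_NPC replicate 2, 3 of the 20 were higher. At 2 weeks 3 of 24 were higher than in T2, Sh3bp2 (1.06), Fyn (0.94) and Plcg1 (0.88), beside 4.62% of all features higher and 4.85% lower. Syk, Lyn, Tyrobp, Inpp5d and Ptpn6 passed in neither comparison.

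Of 8 further Fc receptor genes on the array, 2 rose and 1 fell in T1, beside 19.1% of all features higher and 25.1% lower: Trim21, a cytosolic antibody receptor, rose by 1.25 in T1 (measured on 3 of 4 T0 arrays) and Faim3, an IgM receptor, by 0.73, and Fcer2, a low-affinity IgE receptor, fell by 1.53. The IgE receptor subunit Fcer1a and the polymeric immunoglobulin receptor Pigr were not well above background on any array. Ms4a2, the beta chain of the IgE receptor, was so on 1 array, and the IgA receptor Fcar on 1 T1 and 2 T1_NPC arrays. Of 3 features of immunoglobulin heavy chains and the joining chain (Igh-1a, Igh-6 and Igj), none passed in T1. Igh-1a, the only IgG chain among them, was not well above background on any array. Igh-6, an IgM heavy chain, was above background on 1 T1 array and all 4 T1_NPC arrays. It was higher in T1_NPC (limma, adjusted p = 8.0e-04). At 2 weeks it was above background on all 4 T2 and 3 T2_NPC arrays, with means of 4.87 and 4.50 (limma, adjusted p = 0.53). Its transplantation effect was lower at 2 weeks than at 1 week (limma, adjusted p = 0.033).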

How the data were processed

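The authors hybridised RNA from 28 rat spinal cords to Agilent 1-colour arrays, read them with Feature Extraction 10.7.1.1 (per the file headers), corrected background and applied quantile normalization. The deposited value table holds log2 values. The deposited scanner outputs hold intensity values, which were used for detection, slide, scan session and alternatives. No genome build of the authors' processing is given in the sources used here; probe positions are rn4, from the array annotation.

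Of 45018 spots, 1639 controls were left out, and the other 43379 were averaged to 41012 probes and to 35469 gene names. A mean per group was fitted over all 28 arrays with limma 3.58.1 in R 4.3.3, without covariates, and p-values were adjusted by Benjamini-Hochberg over all features; a call is an adjusted p under 0.05. The script was tested on simulated data. No value column lacked a sample. For genes below background on all T0 arrays, the fold is a lower bound against the lowest signal among probes well above background on each array. Normexp (offset 50) used median signals, since 20 outputs hold no mean signal. Precision is limited by having 4 arrays in a group.

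The members and lists were chosen with earlier results of these data known. All members are named, and from each list up to 3 called genes with the largest rise and fall and the defining partners, of which 1 is not reported here. Alternatives were the source and sample names of the arrays, scaling, background correction, a filter on dim probes, probe rule, moderation, arrays in the fit, replicate number, slide and session as blocks, and each array left out. Replicate numbers did not pair the arrays.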

Additional observations from a re-analysis of the deposited data

Results flagged for a closer look

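Dixon's test was applied to each gene in each group of 4 arrays, 49 in all, and 5 arrays stood apart from the other 3; chance flags about 1 in 20. Fcrls in T2_NPC replicate 3 was low at 14.01. Fcer1g in T4 replicate 3 was low at 14.45. Fcgr2a in T0 replicate 1 was low at 10.0045, in a group that spanned 0.02 log2 units. Fcgr2b in T0 replicate 2 was high at 12.44. Fcgrt in T1_NPC replicate 2 was low at 13.12, and it is the array on which 5 other members were also lowest in their group.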

How the results depend on the processing

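Under the scanner outputs' own sample names, 0 members were called in each of the 6 comparisons with T0 and in T8 against T1, where the direction turned for Fcer1g (0.45), Fcgr1a (0.18), Fcgr2a (0.57) and Fcgr3a (0.12). Over all features, 0 were called there in T1, T4, T8 and T1_NPC against T0 and in T8 against T1. The count was 1 in T2 and 831 in T2_NPC against T0, so the loss was not particular to the members. With the undisputed arrays 2 members were called in T2_NPC against T2, beside 7399 of all features. With the time-course arrays alone 1 member was called in T2 against T1. Leaving out 1 array gave 0 to 1 members in T2 against T1 and 1 to 4 in T8 against T1. The replicate number as a block left 4 members called in T8 against T1 and 0 in the other tested comparisons; same-numbered arrays did not deviate together (mean r -0.0033). Scaling to the 75th percentile moved the median of all features by -0.27 in T1 against T0 and 0.15 in T8 against T1 without turning a member's called direction. Counts over all features moved by over 1.5 times in T2 against T1 (525; 182 without T2 replicate 1, 905 with the session block), T4 against T2 (27; 124 with the time course alone, 11 with the replicate block), T8 against T4 (32; 120 with normexp, 15 with the replicate block), T1_NPC against T1 (4225; 7397 at the 75th percentile), T2_NPC against T2 (3359; 7399 with undisputed arrays) and the difference of transplantation effects (106; 1976 at the 75th percentile). Detection did not limit the members, which were above background on all arrays. With the undisputed arrays, 11 of 24 downstream, 5 of 17 inhibitory and 4 of 20 phagocytosis genes were higher in T2_NPC than in T2, against 3, 2 and 1. Calls over all features in either direction also grew, to 7399 from 3359, so nothing is read from the larger list counts. The T2 arrays were then of scan session 1 and the T2_NPC arrays of session 3.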
